A study of Homo sapiens with 12 samples.

Results

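ICRF193 was compared with no inhibitor in 4 matched pairs of RNA-seq libraries from HCT116 cells, a diploid human colon cancer line. These pairs take up 8 of the 12 libraries of the series and were formed by the labels for line, TNFα time and inhibitor. The pairs and the gene lists used below were chosen with earlier results of these data known. The other 4 libraries come from cells given camptothecin (CPT), an inhibitor of topoisomerase I, and enter only where CPT is named. Cells received 5 µM ICRF193 for 2 h, and in pairs 2 and 4 20 ng/mL of the cytokine TNFα was additionally present for 1 h. Pair 1 was wildtype (WT) cells without TNFα, pair 2 was WT cells with 1 h TNFα, pair 3 was p65-deficient cells without TNFα and pair 4 was p65-deficient cells with 1 h TNFα. The p65-deficient cells were clone 32, a single-cell clone, so differences between the lines may belong to the clone. The methods of the study describe it as CRISPR-Cas9-edited in the third exon of p65, while the sample labels call it an shRNA line. Each condition was 1 library, so the 4 pairs served as repeats of the inhibitor effect. The sources used here do not say for each library whether cells without inhibitor received vehicle, and the inhibitor may have been present for longer than 2 h in the pairs that went on to TNFα.

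DNA topoisomerase II (TOP2) passes one DNA duplex through a transient break in another and so relieves supercoils and separates intertwined sister chromatids. TOP2A is the form of dividing cells and TOP2B is also present in resting cells. ICRF193 is a bisdioxopiperazine that holds the enzyme as a closed clamp on DNA, and unlike etoposide it acts mainly without stabilizing the cleaved complex. The question asked was which genes moved by small amounts but alike in all pairs.

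The libraries held 8101212 to 22051046 counted reads. Pairs 2 and 4 were balanced in depth, whereas the library without inhibitor was 1.35 times as deep as the ICRF193 library in pair 1 and 2.34 times as deep in pair 3. *RELA*, the gene for p65, was at 60.3 to 63.6 CPM (read counts scaled to the TMM-normalised library size) in the WT libraries and at 38.6 to 43.7 CPM in the p65-deficient ones, and did not move with ICRF193 (log2 fold change 0.02 ± 0.05 (SE), edgeR adjusted p = 0.93). The RNA level does not test a small lesion in the coding sequence. The epithelial markers *EPCAM*, *CDH1*, *KRT8*, *KRT18*, *KRT19* and *CDX2* had at least 185 reads in every library, while *VIL1* had at most 4. Among markers of other cells *CD3E* had 0 reads, *PTPRC*, *COL1A2* and *DCN* had at most 1 and *PECAM1* at most 3, while *CD68* had 149 to 391, *COL1A1* 57 to 141, *ACTA2* 18 to 59 and *VWF* 6 to 26.

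With the pair as a block, edgeR's quasi-likelihood test called 80 of 13631 genes raised (0.587%) and 216 lowered (1.58%) at a Benjamini-Hochberg adjusted p below 0.05. Changes were small. Of the raised genes 73 and of the lowered genes 198 changed by less than 0.5 on the log2 scale, and 4 and 3, respectively, by more than 1. All 4 pairs moved in the same direction for 78 of the 80 raised and 191 of the 216 lowered genes. This held for 18.7% of all genes tested. The genes were called on these same pairs by a test that favours agreement, so the comparison is not independent support. The lowered genes comprised 51 genes with an exonic length under 300 bp, 62 genes that span 200 kb or more, and 103 others. Among the raised genes 1 was that short and 0 were that long. The number of calls depended on the test: DESeq2 called 18 genes raised and 65 lowered, all 83 of them among the edgeR calls, and a fit to all 12 libraries called 10 raised and 22 lowered. Without pair 1 there were 49 raised and 128 lowered, without pair 2 there were 31 and 117, and without pair 3, the least balanced in depth, there were 84 and 238. With total-count scaling the edgeR fit called 100 raised and 163 lowered, so that raised genes made up 38.0% of calls instead of 27.0%.

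A check on the libraries left out of each fit was made by calling genes in 3 pairs and reading their ratio in the fourth. Calls made without pair 1 kept their direction there for 166 of 177 genes, without pair 2 for 144 of 148, without pair 3 for 283 of 322 and without pair 4 for 196 of 235. Over all genes the direction was shared in 52.7% to 58.1%. The median ratio of the raised genes in the left-out pair ran from 0.09 in pair 4 to 0.26 in pair 2, and that of the lowered genes from −0.21 in pair 1 to −0.16 in pair 3.

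**Figure D1:**
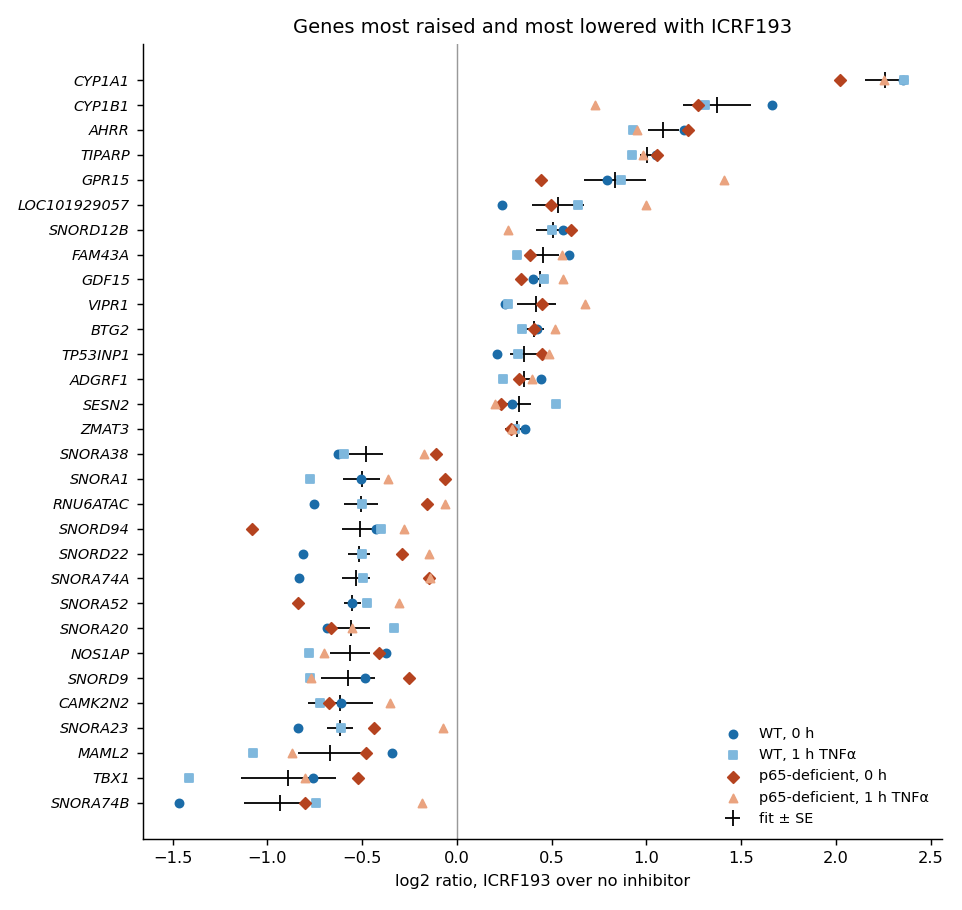
Log2 ratio of ICRF193 over no inhibitor (x axis) in each of the 4 pairs (coloured symbols) and in the paired fit (black tick, bar ± SE) for the 15 most raised and 15 most lowered genes that moved alike in all pairs. CYP1A1 lies above 2 in every pair, and most of the other genes lie within 1 of 0.

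The largest rises belonged to targets of the aryl hydrocarbon receptor (AHR), a ligand-activated transcription factor that pairs with ARNT in the nucleus and binds sites with the core GCGTG. Its best known targets are the cytochrome P450 enzymes that oxidize foreign aromatic compounds, together with its own feedback inhibitors. Of 16 listed targets 9 passed the filter on low counts, and 8 of these rose and 0 fell (edgeR, 8 at unadjusted p below 0.05, DESeq2 called 5). The 7 that did not pass had at most 52 reads over all 8 libraries (among them *CYP1A2*, *ALDH3A1*, *UGT1A6*, *UGT1A1*, *SERPINB2* and *LINC01533*). The median log2 fold change of the 9 was 0.84, beside −0.00 over all genes tested, and 7 or 8 of 9 were raised whichever pair was left out.

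The stretches of DNA before the start sites of 3 raised targets are shown because they hold the AHR core. They are RefSeq sequences of GRCh38.p14, 250 bases upstream of the start site, 5′ to 3′ on the gene's strand, with GCGTG or its complement CACGC in capitals. The *CYP1A1* stretch is chr15:74725529-74725778 (minus strand), that of *AHRR* is chr5:321464-321713 (plus strand) and that of *TIPARP* is chr3:156674340-156674589 (plus strand).
CYP1A1: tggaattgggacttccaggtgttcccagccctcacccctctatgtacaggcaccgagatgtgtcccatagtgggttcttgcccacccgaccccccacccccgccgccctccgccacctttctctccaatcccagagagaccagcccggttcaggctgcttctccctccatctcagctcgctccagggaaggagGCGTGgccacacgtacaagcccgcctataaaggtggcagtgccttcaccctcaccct
AHRR: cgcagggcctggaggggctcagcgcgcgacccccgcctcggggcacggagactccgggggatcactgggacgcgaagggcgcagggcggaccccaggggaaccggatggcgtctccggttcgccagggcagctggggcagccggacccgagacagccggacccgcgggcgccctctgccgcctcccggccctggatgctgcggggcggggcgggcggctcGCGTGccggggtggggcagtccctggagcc
TIPARP: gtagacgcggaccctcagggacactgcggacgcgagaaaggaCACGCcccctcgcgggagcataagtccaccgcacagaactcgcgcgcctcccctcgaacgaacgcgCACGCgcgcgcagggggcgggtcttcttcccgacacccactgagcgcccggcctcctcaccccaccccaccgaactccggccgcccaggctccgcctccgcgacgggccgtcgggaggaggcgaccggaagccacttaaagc

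In windows of 250 bases before to 50 after the start site, GCGTG on either strand was found in 36.5% of 34943 RefSeq promoter windows. A window was listed for 7 of the 8 raised targets, 11 windows in all, and 8 of the 11 (72.7%) held the core, in 6 of the 7 genes. The longer form TNGCGTG, which contains the core, was in 5.50% of all windows and in 3 of the 11, each of a different gene. The listed targets that were not raised or not tested had 7 windows for 6 genes, of which 3 held the core and 3 the longer form. *GPR15* held neither. *CYP1B1* was not listed.

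*CYP1A1* (hg19 chr15:75011883-75017877) encodes a cytochrome P450 that oxidizes polycyclic aromatic compounds and moved most. It was at 2.57, 2.61, 3.90 and 3.62 CPM without inhibitor in pairs 1 to 4 and at 13.5, 13.7, 16.1 and 17.5 CPM with ICRF193. Every treated library was above every untreated one, with no overlap. The log2 fold change was 2.26 ± 0.11 (SE, 4 pairs, edgeR adjusted p = 2.7e-20), from 121.5 reads per library on average.

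*CYP1B1*, a related P450 enzyme that also handles estrogens, went from 1.15, 1.93, 1.48 and 1.33 CPM to 3.78, 4.88, 3.68 and 2.24 CPM. Every treated library was above every untreated one, although the rise in pair 4 rested on 11 and 20 reads. Its log2 fold change was 1.37 ± 0.18 (edgeR adjusted p = 9.3e-07).

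The feedback inhibitors of the pathway rose about as much in each pair. *AHRR*, the AHR repressor that competes for ARNT, was at 8.32, 9.20, 7.71 and 9.54 CPM without and 19.2, 17.6, 18.1 and 18.5 CPM with ICRF193 (log2 fold change 1.09 ± 0.08, edgeR adjusted p = 4.1e-13). *TIPARP*, an ADP-ribosyltransferase that marks AHR for degradation, was at 70.3, 74.8, 64.6 and 70.5 CPM and reached 146, 142, 134 and 140 CPM. Its 4 ratios lay between 0.92 and 1.06, and its edgeR adjusted p was the lowest of all genes tested (log2 fold change 1.00 ± 0.04, 4.8e-24). *GPR15*, a homing receptor of lymphocytes, rose by 0.84 ± 0.16 (edgeR adjusted p = 0.00095), with 0.44 in pair 3 and 1.41 in pair 4.

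3 further targets rose by less. *ALDH1A3*, an enzyme of retinoic acid synthesis, went from 677, 700, 965 and 1006 CPM to 840, 837, 1173 and 1193 CPM, so that the lines differed by more than the treatment, and its 4 ratios lay between 0.25 and 0.31 (edgeR adjusted p = 1.0e-06). *STC2*, a secreted glycoprotein, had ratios near 0.30 in the WT pairs and 0.08 and 0.11 in the p65-deficient pairs (log2 fold change 0.21 ± 0.04). *NFE2L2*, the transcription factor NRF2, changed by 0.17 ± 0.04. *NQO1*, shared between AHR and NRF2, was the member not called (0.01 ± 0.03, edgeR adjusted p = 0.95), with ratios from −0.08 to 0.13. The NRF2 list, *NQO1* included, gave 0 calls among 19 tested (edgeR, 2 at unadjusted p below 0.05, DESeq2 0).

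**Figure D2:**
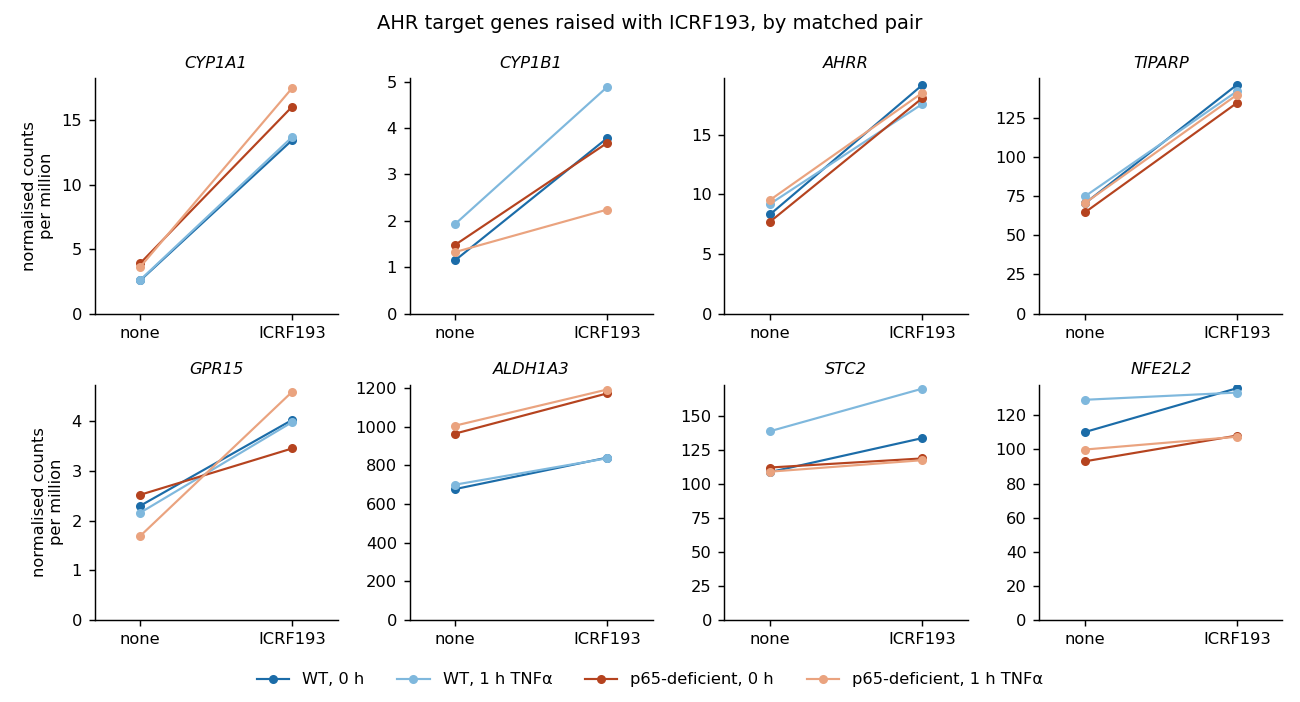
Normalised CPM (y axis, from 0) of the 8 raised AHR targets without inhibitor and with ICRF193, 1 line per matched pair and 1 library per point. All lines rise, for CYP1A1 from 2.57 to 3.90 up to 13.5 to 17.5.

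The receptor complex itself was not called: 0 of 7 components (among them AHR, its partners ARNT and ARNT2, and the chaperone subunits PTGES3, HSP90AA1 and HSP90AB1) passed in edgeR, with 1 at unadjusted p below 0.05 and 0 in DESeq2. *AHR* was at 86.2 to 92.2 CPM without and 87.7 to 93.4 CPM with ICRF193 (log2 fold change 0.03 ± 0.04), and *ARNT* changed by 0.10 ± 0.05 (edgeR adjusted p = 0.45). The ICRF193 libraries were also above the CPT libraries for *CYP1A1* (log2 difference 2.24 ± 0.13), *AHRR* (1.73 ± 0.09) and *TIPARP* (2.89 ± 0.06), each at an edgeR adjusted p of 8.3e-10 or lower. In that contrast 52.5% of 14221 genes were called. Against the same control libraries CPT changed *CYP1A1* by 0.02, *AHRR* by −0.65 and *TIPARP* by −1.88.

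Targets of p53 formed another raised group. p53 is a transcription factor activated by DNA damage and other stress, and its targets arrest the cell cycle, start apoptosis or feed back on p53. Of 30 tested members of a list of 31 (1, *SPATA18*, had 2 reads in all), 10 rose and 0 fell (edgeR, 17 at unadjusted p below 0.05 and all upward; DESeq2 called 4). The fit without pair 3 also called 10, and leaving out another pair gave 7 or 8, while the fit of all 12 libraries called 2. Over the 30 genes the median log2 fold change was 0.11, with pair medians of 0.14, 0.12, 0.13 and 0.16.

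*GDF15*, a secreted stress cytokine, was at 120, 149, 173 and 214 CPM without inhibitor and at 159, 205, 219 and 315 CPM with it. The groups overlapped across pairs, since the level also differed between lines, but each pair rose, by 0.34 to 0.56 (log2 fold change 0.44 ± 0.03, edgeR adjusted p = 2.7e-13). *CDKN1A*, the cyclin-dependent kinase inhibitor p21, went from 184, 191, 161 and 151 CPM to 218, 231, 201 and 200 CPM. All treated libraries lay above all untreated ones (log2 fold change 0.30 ± 0.03, edgeR adjusted p = 3.1e-09).

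*BTG2*, an antiproliferative regulator of mRNA decay, rose by 0.34 to 0.52 in the pairs although TNFα raised its level in WT cells from 24.96 to 42.95 CPM without inhibitor. *MDM2*, the ubiquitin ligase that limits p53, rose by 0.22 ± 0.03 (edgeR adjusted p = 2.9e-06), and *PPM1D*, a phosphatase that dampens the damage response, by 0.17 ± 0.04. The stress genes *TP53INP1*, *SESN2* and *ZMAT3* changed by 0.35 ± 0.07, 0.33 ± 0.06 and 0.31 ± 0.06. *BBC3*, the apoptosis inducer PUMA, rose by 0.29 ± 0.07 and *POLH*, a polymerase that copies past damaged bases, by 0.19 ± 0.05. *SESN2* also belongs to the integrated stress response list, in which it and *DDIT4* (0.26 ± 0.04) were the 2 raised of 22 tested.

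Genes of mitosis shifted upward by a smaller amount, while the median log2 fold change of the replication list was −0.003. Of 45 mitotic genes 5 rose and 0 fell, with 19 at unadjusted p below 0.05 and all upward, and DESeq2 called 2. Leaving out a pair gave 3 without pair 1, 2 without pair 2 4 without pair 3 and 8 without pair 4, and the fit of all 12 libraries called 0. The 5 were *CDK1*, the kinase that drives entry into mitosis (0.22 ± 0.03), *MKI67*, the proliferation marker Ki-67 (0.18 ± 0.03), the spindle proteins *CKAP2* (0.17 ± 0.03) and *ASPM* (0.14 ± 0.03), and the checkpoint kinase *TTK* (0.12 ± 0.03). The list's median was 0.06, and its pair medians were 0.07, 0.04, 0.08 and −0.00. *CDK1* was at 185, 196, 202 and 226 CPM without and 219, 235, 236 and 249 CPM with ICRF193, so that pair 4 control lay within the treated range. Of 39 genes of DNA replication and the G1/S transition 0 were called (edgeR, 2 at unadjusted p below 0.05, DESeq2 0), as were 0 of 45 genes of recombination and Fanconi repair (edgeR, 12 at unadjusted p below 0.05, DESeq2 0). At the background of 0.587% raised and 1.58% lowered, 0 calls in lists of these sizes is no result about them.

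The target of the inhibitor moved with the mitotic genes. *TOP2A* was at 465, 438, 499 and 520 CPM without and 516, 500, 603 and 560 CPM with ICRF193, which is a rise of 0.18 ± 0.03 (edgeR adjusted p = 0.00013) present in every pair. *TOP2B* rose in each pair by 0.04 to 0.19 and was not called (0.08 ± 0.03, edgeR adjusted p = 0.25). *TOP1*, *TOP1MT*, *TOP3A*, *TOP3B* and the repair enzymes *TDP1* and *TDP2* had log2 fold changes between −0.04 and 0.06. *SMC4*, a condensin subunit, was the 1 called of 21 genes of cohesin and condensin (0.11 ± 0.03), beside 0.587% of all genes raised. DESeq2, the fit of all 12 libraries and each fit that left out a pair called 0 of these genes.

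**Figure D3:**
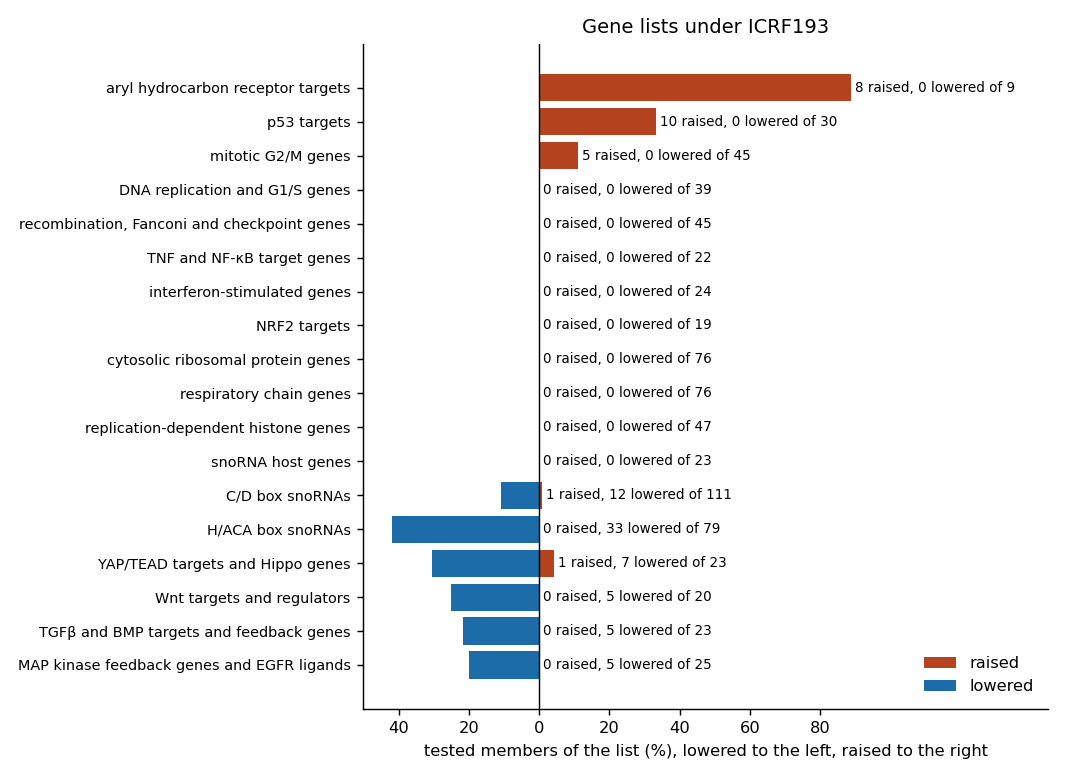
Share of the tested members of 18 gene lists that were called lowered (left of 0) or raised (right of 0) at an edgeR adjusted p below 0.05, in percent, with the counts written beside each bar. AHR targets had 8 of 9 raised, and H/ACA box snoRNAs had 33 of 79 lowered.

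Many H/ACA box small nucleolar RNAs (snoRNAs) were lowered. These RNAs guide the conversion of uridine to pseudouridine in ribosomal and spliceosomal RNA, are mostly processed from introns of host genes, and end in an ACA box near the 3′ end. *SNORA52* and *SNORA48*, both among the called members with the lowest p, are shown in full as GENCODE lists them, in DNA letters with the ACA box in capitals. Their lengths, 134 bases for *SNORA52* (hg19 chr11:811681-811814, plus strand) and 135 bases for *SNORA48* (hg19 chr17:7478031-7478165, plus strand), equal those in the count files, and in both 3 bases follow the box.
SNORA52: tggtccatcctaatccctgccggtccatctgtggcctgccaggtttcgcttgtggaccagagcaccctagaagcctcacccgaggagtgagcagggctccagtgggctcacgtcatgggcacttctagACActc
SNORA48: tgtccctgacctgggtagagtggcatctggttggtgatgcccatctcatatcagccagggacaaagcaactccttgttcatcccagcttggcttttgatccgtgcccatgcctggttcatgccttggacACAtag

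Of 79 H/ACA snoRNAs that passed the filter 33 were lowered and 0 raised (edgeR, 52 lowered and 2 raised at unadjusted p below 0.05). DESeq2 called 5 lowered and the fit of all 12 libraries 4. The median log2 fold change was −0.28, and 28 members went down and 1 up in all 4 pairs. Pair medians were −0.35, −0.28, −0.25 and −0.07, so that pair 4 shifted least. Leaving out a pair gave 18 to 32 lowered and 0 raised, with 19 without pair 1, 18 without pair 2 and 29 without pair 3. In the p65-deficient pairs alone 10 of 70 were called (median −0.15), and in the WT pairs alone 32 of 79 (−0.31). The 79 genes summed to 4462, 4056, 3304 and 2654 CPM without inhibitor and to 3663, 3616, 2483 and 2403 CPM with it. Depth and the overall share of short genes moved with these values in part: genes with an exonic length under 300 bp took 3.24%, 3.08%, 2.88% and 2.51% of reads without and 2.98%, 3.05%, 2.33% and 2.38% with ICRF193. The depth of the control library was 1.35, 0.99, 2.34 and 0.93 times that of the treated one. The part of either in the snoRNA result was not tested. In pairs 2 and 4, which were balanced in depth, the H/ACA medians were −0.28 and −0.07.

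*SNORA52* was at 167, 140, 97.4 and 60.6 CPM without inhibitor and at 114, 101, 54.5 and 49.0 CPM with it. Levels also differed between the lines, and each pair fell, by 0.31 to 0.84 on the log2 scale (log2 fold change −0.55 ± 0.04, edgeR). *SNORA48* went from 159, 143, 126 and 104 CPM to 124, 116, 91.4 and 93.8 CPM, and its pairs lay between −0.47 and −0.16 (−0.33 ± 0.04). *SNORA23* (−0.62 ± 0.07) and *SNORA74A* (−0.53 ± 0.07) had ratios of −0.84 and −0.61, and −0.83 and −0.49, in pairs 1 and 2 and of −0.44 and −0.07, and −0.15 and −0.14, in pairs 3 and 4. Over the 79 genes the cell-line term called 0 (edgeR, 22 at unadjusted p below 0.05) and the TNFα term 2.

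C/D box snoRNAs, which guide 2′-O-methylation, moved less. Of 111 tested, 12 were lowered and 1 raised, and DESeq2 called 5 lowered and 0 raised. The median was −0.05, with pair medians of −0.18, 0.04, −0.17 and 0.03 that changed sign between pairs, and without pair 1 the median was 0.01 with 7 lowered. Without pair 3 there were 12 lowered. The lowered ones included *SNORD22* (−0.51 ± 0.06), *SNORD17* (−0.31 ± 0.04), *SNORD46* (−0.38 ± 0.06) and *SNORD15B* (−0.18 ± 0.03). *SNORD12B* was the raised one, at 8.05, 9.20, 6.87 and 8.93 CPM without and 11.9, 13.1, 10.5 and 10.8 CPM with ICRF193 (0.51 ± 0.09). Of 19 Cajal body RNAs 2 were lowered, *SCARNA10* (−0.25 ± 0.04) and *SCARNA1* (−0.44 ± 0.08).

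Of 4 spliceosomal RNAs tested 3 were lowered, of 5 polymerase III transcripts 2, and of 35 microRNA genes 1, with 0 raised. Over all genes 1.58% were lowered. The microRNA gene was *MIR6087*, with ratios of −0.37, −0.09, −1.16 and 0.17 in pairs 1 to 4. DESeq2 and the fit of all 12 libraries called 0 of the polymerase III and microRNA lists. The minor spliceosome, which removes a rare class of introns, uses U11, U12, U4atac and U6atac. *RNU11* changed by −0.39 ± 0.06, *RNU4ATAC* by −0.35 ± 0.07 and *RNU6ATAC* by −0.50 ± 0.09, each lower in all 4 pairs, and *RNU12* by −0.60 ± 0.11, with −1.04 and −0.69 in the WT pairs but 0.24 and −0.22 in the p65-deficient ones. DESeq2 called 0 of the 4 spliceosomal RNAs tested, where edgeR called 3 of them (*RNU6ATAC* was counted with the polymerase III transcripts). The vault RNA *VTRNA1-1*, the other polymerase III transcript called, fell from 36, 34, 11 and 6 reads to 8, 11, 2 and 1 reads, too few to give its size well (−1.70 ± 0.32), while *VTRNA1-3* was at 0.08. The spliced host genes of snoRNAs had 0 calls among 23 (edgeR, 3 at unadjusted p below 0.05, DESeq2 0), replication-dependent histone genes 0 among 47 (5, DESeq2 0) and cytosolic ribosomal protein genes 0 among 76 (8, DESeq2 0). At the background of 0.587% raised and 1.58% lowered, lists of these sizes hold few or no calls. Of 7 abundant nuclear long noncoding RNAs 2 rose, *MALAT1* by 0.18 ± 0.04 and *NEAT1* by 0.21 ± 0.04, both in 4 of 4 pairs, and *TUG1* was at −0.08. DESeq2, the fit of all 12 libraries, the fit without pair 2 and the p65-deficient pairs alone called 0 of the 7.

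**Figure D4:**
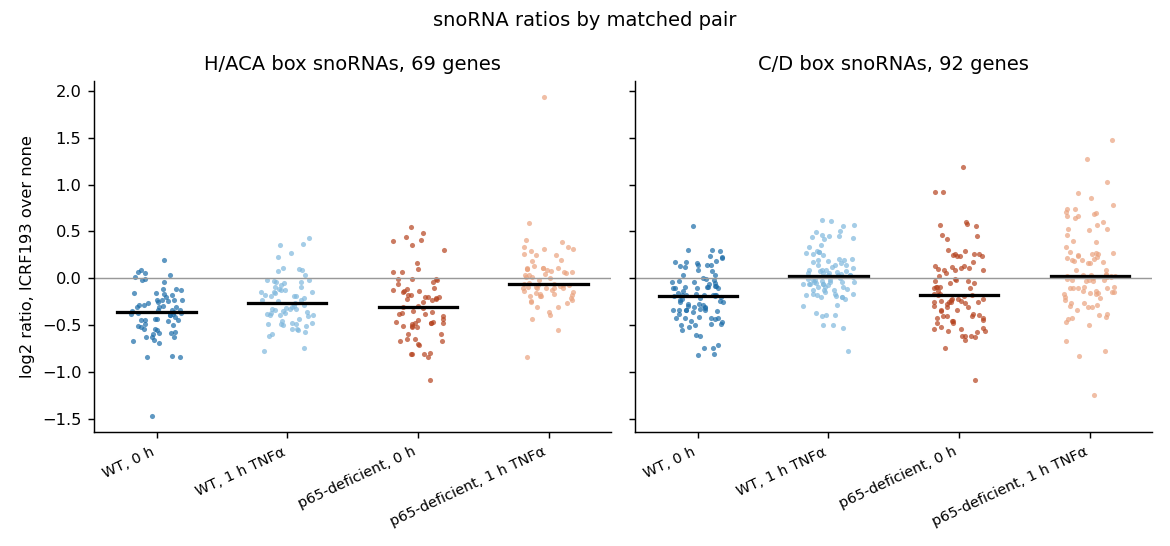
Log2 ratio of ICRF193 over no inhibitor (y axis) of 69 H/ACA and 92 C/D box snoRNAs with a mean count of at least 20, by pair, 1 point per gene and a bar at the median. The H/ACA medians are −0.36, −0.26, −0.31 and −0.06, and 63, 59, 58 and 37 of the 69 points lie below 0.

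Some very long genes were lowered too. Genomic span was taken as the distance from the first to the last exon in the count files (hg19). Of 556 genes that span 200 to 400 kb 43 were lowered and of 188 genes of 400 kb or more 19, together 62 of 744, and 0 of these 744 rose (edgeR, 17 upward and 163 downward at unadjusted p below 0.05, DESeq2 called 24 lowered and 0 raised). Of the 62, 60 were lower in all 4 pairs, which the calling on these same pairs favours. Over all 13245 genes with a span, which are not independent replicates, Spearman's rank correlation of the ratio with span was 0.01, 0.03, 0.14 and −0.10 in pairs 1 to 4, so it was near 0 and changed sign. The share lowered was 7.73% and 10.1% in these classes, beside 0.415% at 10 to 50 kb, 0.426% at 50 to 100 kb and 2.38% at 100 to 200 kb. The median log2 fold change was −0.06 and −0.07, and it was below 0 in every pair for both classes. It was 0.02 at 50 to 100 kb. The fit without pair 3 called 65 of 742 lowered, that without pair 2 called 38 of 711, that of all 12 libraries called 11 of 744, and 0 rose in any fit that left out a pair. Below 10 kb 87 of 3453 genes were lowered, 51 of them the short RNAs above.

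The shift was small for the class, and larger for single called genes. *NOS1AP* (hg19 chr1:162039581-162339813), an adaptor of neuronal nitric oxide synthase, was at 7.82, 9.49, 9.19 and 9.17 CPM without and 6.01, 5.50, 6.91 and 5.61 CPM with ICRF193, with no overlap (−0.56 ± 0.11, edgeR adjusted p = 0.0006). *ARHGAP42* (hg19 chr11:100558407-100861656), a GTPase-activating protein, went from 42.3, 43.4, 41.3 and 46.8 CPM to 32.2, 28.2, 33.3 and 36.9 CPM, again with no overlap (−0.43 ± 0.06, edgeR adjusted p = 4.8e-07). *MAML2*, a Notch coactivator, fell by 0.67 on the log2 scale from a low level of 2.53 to 5.79 CPM. The chromatin genes *ARID1B* (−0.24 ± 0.05), of the BAF complex, and *KDM6A* (−0.23 ± 0.05), a histone demethylase, the splicing kinase *SRPK2* (−0.25 ± 0.05) and the transcription factor *TCF7L2* (−0.34 ± 0.05) fell in every pair. DESeq2, the fit of all 12 libraries and the p65-deficient pairs alone called 0 of *ARID1B*, *KDM6A*, *SRPK2* and *MAML2*. Classes by exonic length behaved differently: in the longest sixth of genes, with exons of 5937 bp or more, the median was 0.01 and both 32 raised and 61 lowered genes were found among 2272.

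**Figure D5:**
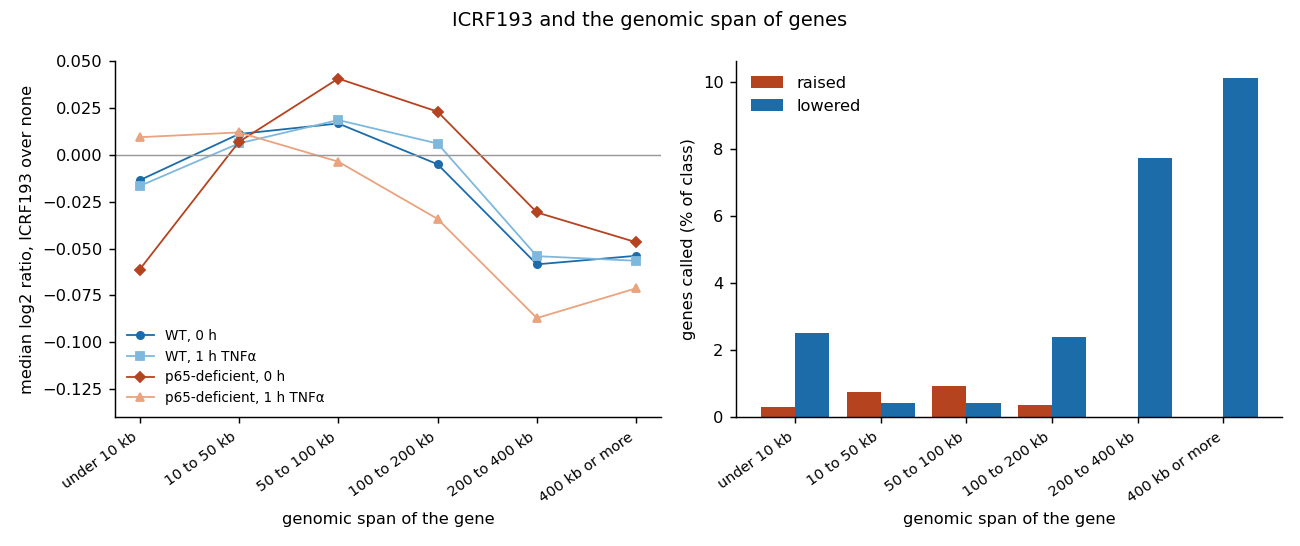
Left, median log2 ratio of ICRF193 over no inhibitor by genomic span class, 1 line per pair, and right, percent of each class called raised or lowered. Beyond 200 kb all 4 medians lie below 0 and 0 genes are raised.

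Regulators of growth and genes of several signalling pathways were also lowered. *MYC*, the growth-promoting transcription factor, was at 892, 988, 674 and 748 CPM without and 683, 767, 548 and 606 CPM with ICRF193. Its 4 ratios lay between −0.39 and −0.30 (−0.34 ± 0.03, edgeR adjusted p = 3.1e-09). *TRIB1*, a pseudokinase that steers protein degradation, moved from 620, 596, 424 and 457 CPM to 457, 472, 327 and 345 CPM (−0.39 ± 0.03, edgeR adjusted p = 4.1e-13). *SOX4*, a transcription factor of progenitor cells, went from 114, 100, 166 and 160 CPM to 84.4, 78.8, 127 and 135 CPM (−0.36 ± 0.04). For all 3 the levels of the lines overlapped with those of the treatments, while each pair fell.

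In the Wnt list 5 of 20 tested genes fell and 0 rose (median −0.07, DESeq2 4, 6 without pair 3 and 1 in the fit of all 12 libraries): *MYC*, *TCF7L2*, the receptor-clearing ligase *ZNRF3* (−0.36 ± 0.06), the transcription factor *SOX9* (−0.29 ± 0.05) and the inhibitor *DKK1* (−0.12 ± 0.03). *ZNRF3* and *DKK1* restrain Wnt signalling, so the members that moved include both effectors and inhibitors. The TGFβ and BMP list had 5 of 23 lowered and 0 raised (median −0.09, and −0.05 without pair 1), with 3 called by DESeq2 3 without pair 3 or pair 4, and 0 in the fit of all 12 libraries. They were the signal carriers *SMAD3* (−0.22 ± 0.03) and *TGFBR2* (−0.19 ± 0.05), the inhibitors *SMURF2* (−0.16 ± 0.03) and *SMAD6* (−0.31 ± 0.08), and the BMP target *ID1* (−0.19 ± 0.03).

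Among 23 genes of the Hippo pathway and its effectors YAP and TEAD 7 fell and 1, *AJUBA*, rose (median −0.09, DESeq2 called 1 lowered and 0 raised). Without pair 1 there were 4 lowered, without pair 2 there were 3, without pair 3 there were 9, and in the p65-deficient pairs alone and the fit of all 12 libraries 0. *AJUBA* was not called without pair 1, 2 or 4. The 7 were *TEAD1* (−0.18 ± 0.03), *PTPN14* (−0.18 ± 0.04), *WWC1* (−0.17 ± 0.04), *AMOTL2* (−0.14 ± 0.03), *FJX1* (−0.27 ± 0.06), *CRIM1* (−0.16 ± 0.04) and *WWTR1*, the YAP paralog TAZ (−0.18 ± 0.04). *TEAD1* and *PTPN14* span over 200 kb and thus belong to the long genes too. Of 25 feedback genes of the MAP kinase pathway and EGFR ligands 5 fell and 0 rose (median −0.09, DESeq2 3, and 3 without pair 1 or without pair 2, 6 without pair 3, and 0 in the p65-deficient pairs alone and in the fit of all 12 libraries): the phosphatases *DUSP5* (−0.19 ± 0.03), *DUSP6* (−0.15 ± 0.04) and *DUSP2* (−0.20 ± 0.06), *PHLDA1* (−0.19 ± 0.03) and the inhibitor *SPRY4* (−0.27 ± 0.05). The Notch list had 2 of 25 lowered, *MAML2* and the ligand *JAG1* (−0.21 ± 0.04), and 1 without pair 2 or without pair 4. DESeq2, the p65-deficient pairs alone and the fit of all 12 libraries called 0 of that list.

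TNFα target genes gave no call for ICRF193. NF-κB, of which p65 is the main activating subunit, drives inflammatory genes after TNFα. Of 33 listed targets 22 passed the filter and 0 were called (edgeR, 5 at unadjusted p below 0.05, DESeq2 0). At the background of 0.587% raised and 1.58% lowered, 0 calls in a list of this size is no result about it. Only pair 2 was WT cells given TNFα, and *CXCL1*, *CXCL3*, *CCL20* and *CSF2* did not pass the filter. The fit without pair 3 called 1 of 23 lowered, and 1 was raised without pair 2 (of 20), with total-count scaling (of 22) and with no filter on low counts (of 33). Their levels summed to 784 CPM without and 795 CPM with ICRF193 in WT cells at 0 h, and to 2292 and 2203 CPM after 1 h TNFα. In p65-deficient cells the sums were 878 and 873 CPM at 0 h and 877 and 963 CPM after TNFα. *CXCL8*, encoding the chemokine IL-8, had 831 reads without and 808 with ICRF193 in WT cells given TNFα, a log2 ratio of −0.06 (95% interval −0.20 to 0.08, Clopper-Pearson, counting error only). *NFKBIA*, the NF-κB inhibitor IκBα, was at 613 and 576 CPM there, a log2 ratio of −0.09 (95% interval −0.13 to −0.05), and *TNFAIP3*, the ubiquitin-editing inhibitor A20, had −0.11 (−0.22 to 0.00). *CXCL2* had −0.06 (−0.36 to 0.23). Of the 30 targets with reads in both of these libraries 5 had an interval below 0, *NFKBIA*, *CXCL1* (−0.24, −0.46 to −0.02), *NUAK2* (−0.22, −0.33 to −0.11), *ZC3H12A* (−0.19, −0.35 to −0.04) and *NFKB2* (−0.12, −0.20 to −0.05), and 0 had one above 0. In pair 1 there were 2 below and 2 above 0, in pair 3 there were 4 and 2, and in pair 4 there were 0 and 3. These intervals compare a pair of libraries, not the conditions.

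Other lists without a call by edgeR or DESeq2 are given as counts, and at the background of 0.587% raised and 1.58% lowered 0 calls in lists of these sizes is no result about them. Of 76 respiratory chain genes 0 were called (6 at unadjusted p below 0.05), and of 76 mitochondrial ribosomal protein genes 0 (3). Of 31 proteasome genes 0 were called (1), and of 24 interferon-stimulated genes 0 (1). Over all genes tested 1573 of 13631 were at unadjusted p below 0.05.

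The effect of ICRF193 was compared between lines and between TNFα conditions with interaction terms. Only the pairs without TNFα were unbalanced in depth, so an effect of TNFα cannot be told apart from one of depth. The cell-line term called 5 genes (0.0367% of 13631) and the TNFα term 9 (0.066%), and DESeq2 called 0 for both, with 31 and 20 genes at unadjusted p below 0.05. Of the lists above, the terms called 0 members of the AHR, p53, mitotic, Wnt, TGFβ, Hippo and MAP kinase lists in edgeR. For the AHR targets 1 of 9 for line and 2 of 9 for TNFα had an unadjusted p below 0.05, and the median differences were −0.02 and −0.04. *RNU12* differed between lines by 0.93 ± 0.20 (p65-deficient minus WT, edgeR adjusted p = 0.037).

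Against CPT, 63 of the 80 genes raised by ICRF193 were higher in the ICRF193 libraries and 7 lower, and of the 216 lowered genes 75 were higher and 70 lower, beside the 52.5% called overall. *MYC* was 1.99 ± 0.16 higher with ICRF193 than with CPT and *ARHGAP42* 0.36 ± 0.07 higher, while *SNORA52* differed by −0.55 ± 0.08 and *SNORA48* by −0.43 ± 0.06 (log2 differences, edgeR). *GDF15* and *CDKN1A* were higher by 0.31 ± 0.08 and 0.24 ± 0.05, and *BTG2* differed by −0.81 ± 0.25. Against the control libraries, which both comparisons share, CPT changed *SNORA52* by 0.00 and *CDKN1A* by 0.06. It changed *MYC* by −2.33, *ARHGAP42* by −0.79, *SNORA48* by 0.10, *GDF15* by 0.14 and *BTG2* by 1.24.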

How the data were processed

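RNA-seq of total RNA (TruSeq Stranded, single-end) was performed by the authors. Per the labels and the methods of the study, reads were trimmed with trimmomatic, and the processing notes name STAR, deepTools and hg19. The deposited files hold raw read counts per gene, which the authors made with featureCounts 1.5.0 over exons. Per the file headers no strand setting was given, so that overlapping sense and antisense genes cannot be told apart. RNA kits differ between labels (RNeasy) and methods (NucleoSpin).

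Counts were tested with edgeR 4.0.16 (R 4.3.3) by a quasi-likelihood fit with the pair as block, TMM scaling, filterByExpr and Benjamini-Hochberg adjustment over 13631 genes. Pair ratios are log2 CPM differences with a prior count of 1. Interaction terms for line and TNFα and a contrast with CPT (all 12 libraries) used the same tool. Depth was 8101212 to 22051046 counts. The 4 pairs differ in line and TNFα and are not replicate cultures. The p-values and SEs come from the spread between these pairs, which the quasi-likelihood fit moderates across genes. They are thus not the spread of a single gene's own 4 ratios. *RNU12*, for example, had an SE of 0.11 with ratios of −1.04, −0.69, 0.24 and −0.22 in pairs 1 to 4. The fits were also run on simulated counts as a check of the code, with the outcome not reported here. DESeq2 1.42.0, other scalings and filters, no block, and leaving out each pair were alternatives. Lists (51) and pairs were chosen with earlier results of these data known. Genes were named if among the 15 most raised or lowered (adjusted p below 0.05, mean count at least 20, same direction in 4 pairs), among the 4 lowest p per list and direction, among the 5 lowest p per interaction, or AHR, topoisomerase and TNFα genes; further called list members are named where a list's calls are given in full. Some genes that these rules take in are not reported here. Promoter sequences are from RefSeq (GRCh38.p14) and snoRNA sequences from GENCODE.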

Additional observations from a re-analysis of the deposited data

Results flagged for a closer look

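The genes below differed in their response to ICRF193 between lines or between TNFα conditions by the interaction test (edgeR, adjusted p below 0.05). Values are log2 differences, p65-deficient minus WT or 1 h TNFα minus 0 h, and DESeq2 called none of them.

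Between lines, *ANKRD30BL* differed by −0.34 (ratios 0.03 and 0.14 in WT, −0.31 and −0.21 in p65-deficient cells), the histone gene *HIST2H3D* by −0.41 and *RNU12* by 0.93. Between TNFα conditions, *MIR6087* differed by 0.79, *MIR663A* by −0.59, *SNORA63* by 0.38, *SCARNA2* by 0.26, *SNORA68* by 0.44, *RPPH1* by 0.27, *SNORD104* by 0.52 and *SNORD10* by 0.28. These 8 are noncoding RNAs of an exonic length of at most 420 bp. Without TNFα the control library was 1.35 and 2.34 times as deep as the treated one. With TNFα it was 0.99 and 0.93 times as deep. A difference by TNFα thus cannot be told apart from one by depth in these pairs.

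Over the 7 alternatives for each term, *MIR6087* and *MIR663A* were called in 5, *ANKRD30BL*, *RNU12* and *SNORA63* in 4, *HIST2H3D*, *SCARNA2* and *SNORA68* in 3, *RPPH1* and *SNORD10* in 2 and *SNORD104* in 1.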

How the results depend on the processing

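Raised and lowered calls numbered 80 and 216. They were 18 and 65 with DESeq2, 3 and 0 with no replicate block (315 genes at unadjusted p below 0.05), and 10 and 22 in the fit of all 12 libraries. Leaving out 1 pair gave 31 to 84 raised and 117 to 238 lowered, with 31 and 117 without pair 2 and 49 and 128 without pair 1. Alternatives added after seeing the data gave 72 and 188 in the WT pairs only, and 23 and 66 in the p65-deficient pairs only. Other scalings and filters moved the counts by less than 1.5 times. No sign changed among the 296 calls under any of these except in the p65-deficient pairs only, where 3 did. Of 97 called genes that the naming rule takes in, DESeq2 called 37, the fit of all 12 libraries 18, and the fit without block 3.

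The line term called 5 genes, 17 with no filter on low counts, 0 with DESeq2 and 2 to 51 leaving out a pair (51 without pair 4). The TNFα term called 9, 0 with DESeq2 and 2 to 64 leaving out a pair (64 without pair 1, 14 without pair 3). The median of the p53 targets was 0.11, and 0.0910 to 0.131 leaving out a pair. That of the TGFβ and BMP list was −0.09, and −0.0464 without pair 1. For spans of 400 kb or more it was −0.07, −0.0594 with total-count scaling, −0.0570 without pair 1, −0.0616 without pair 4, and 0.0143 in the longest sixth by exonic length.

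Some genes that were not called changed sign, most of them near 0, and *TNFAIP3* without pair 2 moved most. Without pair 1 *TOP3A* was at 0.0036 and *TDP1* at −0.0012. Without pair 2 *ARNT2* was at 0.000952 and *TNFAIP3* at 0.25. Without pair 3 *HIST2H3D* was at 0.0382, *TOP1* at −0.000709, *SCARNA2* at 0.0846, *RELA* at −0.0229 and *TDP1* at −0.0150. Without pair 4 *NQO1* was at −0.0240. With no replicate block *CXCL2* was at 0.0137 and *CXCL8* at 0.0071. With total-count scaling *HSP90AB1* was at 0.0040 and *TNFAIP3* at 0.0012. *TNFAIP3* was at 0.0849 with DESeq2 and at 0.0840 with all 12 libraries. The cause of these moves was not tested.

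No paired analysis by replicate number was possible because the labels give no replicate numbers. The pairing used comes from line and TNFα time. Depth limits genes such as *VTRNA1-1* and *CYP1B1*, whose libraries hold few reads.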
